A study of Mus musculus with 32 samples.

Results

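Moderate cells kept under induction while they differentiated (C1MDT, 4 libraries at day 4) were compared with the same kind of cells in pluripotency medium (C1M, 4 libraries at day 0). These 8 of the series' 32 libraries were chosen by their group labels alone, and no measured value entered the choice. Both groups came from C1, a mouse embryonic stem cell line lacking both copies of the β-catenin gene Ctnnb1, with the whole coding sequence deleted, and carrying a reverse tetracycline transactivator and a doxycycline-inducible fusion of mCherry, a destabilising domain and a constitutively active β-catenin. Doxycycline switches on transcription of the fusion, and trimethoprim (TMP) stabilises the protein. C1M cells received 100 ng/mL doxycycline and 10 µM TMP for 48 h in 2i/L (3 µM Chiron, a GSK3 inhibitor, 1 µM PD, a MEK inhibitor, and LIF) and were sorted for moderate mCherry. C1MDT cells were sorted in the same way, replated on gelatin and cultured for 4 days in NDiff227, a serum-free neural differentiation medium without the 2i/L factors, with 100 ng/mL doxycycline and 10 µM TMP throughout. The comparisons further used the knockout with TMP alone at day 0 (C1) and at day 4 (C1T), moderate cells whose inducers were replaced by DMSO for the 4 days (C1MV), and cells sorted for high mCherry at day 0 (C1H) and after 4 days with both inducers (C1HDT), each with 4 libraries.

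All groups share 1 knockout line, and the cells were not sorted again at day 4. Time, medium, replating and the removal of 2i/L change together between C1M and C1MDT, so their parts in a difference cannot be told apart. The knockout pair was neither exposed to doxycycline nor sorted for mCherry, so these and the exogenous protein cannot be told apart either. In bulk libraries, fewer cells of a type and less RNA per cell cannot be told apart.

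As background, mouse embryonic stem cells in 2i/L resemble the naive epiblast before implantation, held by factors such as Nanog, Esrrb, Klf4 and Tfcp2l1. On release from 2i/L they lose these factors and pass through a formative state marked by Otx2, Pou3f1, Fgf5 and the de novo DNA methyltransferases, from which germ layer programmes can start. β-catenin joins cadherins at adherens junctions and acts in the nucleus with TCF and LEF proteins, where it relieves repression of pluripotency genes by Tcf7l1. Primitive endoderm and its visceral and parietal derivatives are the extraembryonic epithelia that surround the epiblast, and they secrete much of the early basement membrane.

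The 8 libraries held 1715046 to 3648787 counts on genes (1366951 to 3648787 over the 32), where 3 counts correspond to 0.822 to 1.75 counts per 1000000 counts (CPM). Replicates differed beyond counting noise, with 1.77 to 3.14 chi-square units per gene, so none was a repeated library. Counts on mitochondrially encoded genes made up 2.41% ± 0.146 (SD, n = 4) in C1M and 0.7% ± 0.12 in C1MDT, and those on cytosolic ribosomal protein genes 9.8% ± 0.283 and 12.2% ± 0.237. The 10 most counted genes took 9.89% ± 0.499 and 7.95% ± 0.43, and at equal depth 15310 ± 21.6 and 14500 ± 46.1 genes had a count. These 4 measures did not overlap between the groups (2-sided exact permutation test, adjusted p = 0.0286, the smallest that 4 against 4 allows). Reads assigned to no gene amounted to 19.7% to 21.2% in C1M and 10.8% to 11.2% in C1MDT, and the part of these library measures in the gene results below was not tested.

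Ctnnb1 (chr9:120929216-120960507, GRCm38) was counted at 9.76, 12.1, 9.45 and 17.7 CPM in C1M replicates 1 to 4 and at 25.4, 25.8, 31.6 and 34.1 CPM in C1MDT. The groups did not overlap, and the log2 difference was 1.28 (SE 0.19, FDR 1.6e-09 by edgeR's quasi-likelihood test, as for every FDR below). In the knockout the level was 7.81 ± 2.63 CPM at day 0 and 9.74 ± 2.47 CPM at day 4, so counts on this gene do not go to 0 without the coding sequence. The sources used here do not say which part of the gene the 3′ reads come from, which limits this as a check of the labels. Axin2, a direct β-catenin target and negative regulator of the pathway, lay at 2.22 ± 0.847 CPM in C1M and 2.72 ± 0.86 CPM in C1MDT, with overlapping libraries (log2 0.28, SE 0.48, FDR 0.655).

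A large share of the genes tested changed between the pluripotent and the differentiating induced cells. Of 15280 genes, 8010 (52.4%) passed an FDR of 0.05, 3743 (24.5%) higher and 4267 (27.9%) lower in C1MDT. The libraries of the 2 groups did not overlap at 6913 genes (45.2%). The median log2 difference over all genes tested was -0.06. Large falls outnumbered large rises, with 1156 called genes under -2 and 484 over 2 on the log2 scale. Among the falls, 884 genes ended at no more than 3 counts per library on average, and 315 of the rises started there. Long intergenic noncoding RNAs rose less often than all genes tested, with 58 of 502 higher, while the 150 lower were near the share of all genes. Of 14426 protein-coding genes, 4034 were lower and 3652 higher.

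The steepest rises among genes reaching 10 CPM included endoderm products, imprinted transcripts and the LIN28 and LEF1 regulators. Spink1, a secreted trypsin inhibitor, was at 2.97, 0.709, 7.17 and 2.48 CPM in C1M and at 201, 253, 252 and 222 CPM in C1MDT. Every C1MDT library lay far above every C1M library, with a log2 difference of 6.05 (SE 0.18, FDR 5.3e-40). Lin28a, an RNA-binding protein that blocks let-7 maturation, was at 7.64, 9.58, 18.6 and 7.43 CPM in C1M and at 614, 523, 519 and 537 CPM in C1MDT (log2 5.6, SE 0.18, FDR 3.1e-21). Lef1, a DNA-binding partner of β-catenin, was at 1.7, 1.42, 6.19 and 0.826 CPM in C1M and at 133, 133, 131 and 130 CPM in C1MDT (log2 5.58, SE 0.18, FDR 5.2e-57). The 4 induced day-4 libraries were nearly equal for Lef1, while C1M replicate 3 stood above the other C1M libraries.

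Car4, a membrane carbonic anhydrase, went from 1.29 ± 1.05 to 82.3 ± 11.6 CPM and the imprinted Nnat from 1.8 ± 1.81 to 120 ± 4.43 CPM. H19, Cldn6, Scube2, Hkdc1, Cubn, Ptn and S100g had at most 3 counts per library on average in C1M, so they are given as ratios of summed counts with a 95% exact interval that covers counting error only. The ratio was 63.4 (34.3 to 133) for the imprinted noncoding RNA H19 and 41.2 (22.2 to 86.5) for the tight junction gene Cldn6. It was 100 (27.3 to 831) for Scube2, a secreted factor that helps release Hedgehog, and 61.1 (20.6 to 299) for Hkdc1, a hexokinase domain protein. For Cubn, an endocytic receptor of visceral endoderm, it was 59.8 (20.2 to 293). The growth factor Ptn stood at 41.9 (16.1 to 156) and the calcium-binding S100g at 41.5 (15.9 to 154).

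The steepest falls included surface, transport and secreted genes as well as enzyme genes and an autophagy receptor, expressed in C1M and hardly in C1MDT. Aqp3, a water and glycerol channel, was at 397, 424, 373 and 287 CPM in C1M and at 2.31, 1.47, 1.95 and 1.38 CPM in C1MDT, a 208-fold lower mean (log2 -7.69, SE 0.18, FDR 9.5e-55). Calcoco2, an autophagy receptor, was at 534, 521, 515 and 532 CPM in C1M and at 8.08, 8.85, 6.98 and 6.54 CPM in C1MDT (log2 -6.12, SE 0.12, FDR 5.6e-92). Both genes separated the groups by a gap far wider than the spread within either. Aldh1a3, which makes retinoic acid, was at 23.3, 20.2, 19.9 and 17.7 CPM in C1M and had no count in any C1MDT library, at least 17.3-fold lower. The epidermal gene Krtdap was likewise without a count in C1MDT, at least 8.7-fold lower than its 10.2 ± 2.43 CPM in C1M. Ratios of summed counts, C1M over C1MDT, were 148 (57.5 to 546) for the surface antigen Ly6a, 204 (36.2 to 8100) for the cation channel Trpa1 and 94.5 (40.2 to 292) for the Hedgehog-binding antagonist Hhip. Fbln5, a fibulin, was at 106 (28.9 to 878), the glycosyltransferase gene B3gnt3 at 95 (32.2 to 463) and the sodium channel gene Scn3a at 98.9 (27 to 823). Fxyd4, an ion pump subunit, was at 71.1 (24 to 347) and the aspartoacylase gene Aspa at 64.8 (27.5 to 201).

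**Figure D1:**
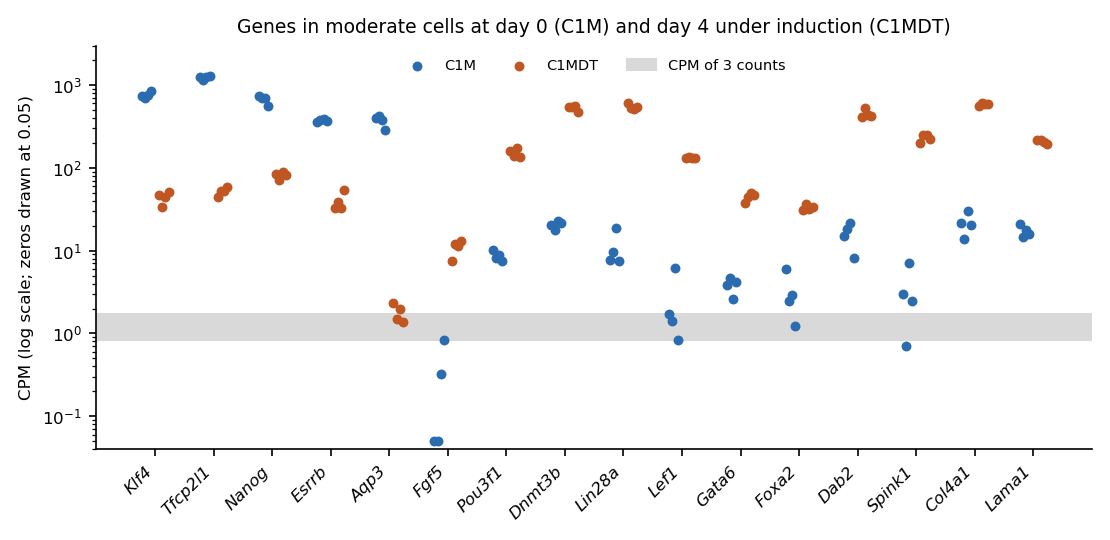
Level (CPM, log axis, zeros drawn at the bottom) of 16 genes in each of the 4 C1M (blue) and 4 C1MDT (orange) libraries, 1 point per library, with a grey band at the CPM of 3 counts. For each gene the C1M points lie apart from the C1MDT points, for example Spink1 between 0.709 and 7.17 CPM in C1M and between 201 and 253 CPM in C1MDT.

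The naive pluripotency programme was lower almost throughout. Of the 20 naive factors listed, all tested, 18 were lower, 1 higher and 1 not called, with a median log2 difference of -2.49 (all genes -0.06). Their summed level was 9680 to 10100 CPM in C1M and 1970 to 2260 CPM in C1MDT. Nanog, a homeobox factor at the core of the naive network, was at 734, 690, 689 and 556 CPM in C1M and at 83.6, 71.2, 89.9 and 82.9 CPM in C1MDT (log2 -3.02, SE 0.09, FDR 6.6e-62). Esrrb, an orphan nuclear receptor that depends on GSK3 inhibition, was at 360, 373, 390 and 371 CPM in C1M and at 32.3, 39.1, 33 and 53.7 CPM in C1MDT (log2 -3.23, SE 0.10, FDR 2.3e-47). Both genes were still counted in every library at day 4, at an 8.14-fold lower mean for Nanog and a 9.46-fold lower mean for Esrrb.

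Tfcp2l1, a grainyhead-family factor downstream of LIF, was at 1260, 1160, 1250 and 1270 CPM in C1M and at 44.4, 52.7, 52.8 and 58.5 CPM in C1MDT (log2 -4.55, SE 0.08, FDR 1.6e-95). Klf4 went from 756 ± 63.6 to 44.1 ± 7.59 CPM (log2 -4.10, SE 0.11), and Prdm14, which restrains FGF signalling and DNA methylation, from 50.8 ± 3.99 to 2.31 ± 0.861 CPM (log2 -4.39, SE 0.24). The dioxygenase gene Tet2 went from 257 ± 17.9 to 15.5 ± 4.3 CPM and the junction gene Jam2 from 264 ± 11.5 to 7.61 ± 1.82 CPM (log2 -4.10 and -5.07). The exception that rose was Gbx2, a homeobox gene that also serves in later neural patterning, from 2.25 ± 1.44 to 10.1 ± 2.27 CPM (log2 2.10, SE 0.34, FDR 4.7e-08).

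General pluripotency genes did not move as 1 block. Of 13 tested, 8 were higher, 3 lower and 2 not called, and their summed level was 3230 to 3310 CPM in C1M and 3320 to 3700 CPM in C1MDT. Utf1, a chromatin factor of the epiblast, went from 41.4 ± 9.72 to 130 ± 8.81 CPM (log2 1.65, SE 0.11), and the zinc finger gene Zfp462 from 26.6 ± 6.51 to 78.9 ± 15.5 CPM (log2 1.57, SE 0.13). Lower were Tdgf1, the Nodal co-receptor (601 ± 18 to 112 ± 6.28 CPM, log2 -2.42), Sox2 (798 ± 42.9 to 264 ± 24.8 CPM, log2 -1.59) and Dppa2 (89 ± 6.12 to 44.4 ± 3.62 CPM, log2 -1.0). Pou5f1, the POU factor needed in both naive and formative cells, was at 38.6, 40.4, 41.7 and 46.6 CPM in C1M and at 55.4, 49.4, 43.6 and 48.9 CPM in C1MDT. The groups overlapped for Pou5f1, which was not called (log2 0.22, SE 0.13, FDR 0.134).

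LIF is removed with 2i/L, and of 17 LIF and STAT3 genes 11 were lower and 2 higher, with a summed level of 3750 to 3970 CPM in C1M and 1220 to 1260 CPM in C1MDT. The imprint-protecting factor Zfp57 was among the large falls at high expression, from 228 ± 11.9 to 16.8 ± 2.6 CPM (log2 -3.75, SE 0.14).

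Nearly every formative gene rose. Of 17 formative and early post-implantation genes, 16 were higher and 1 lower, with a median log2 difference of 2.52 and a summed level of 401 to 452 CPM in C1M and 2210 to 2470 CPM in C1MDT. Pou3f1 (OCT6), a POU factor of the post-implantation epiblast, was at 10.2, 8.16, 8.8 and 7.43 CPM in C1M and at 159, 140, 173 and 137 CPM in C1MDT (log2 4.13, SE 0.18, FDR 2.4e-23). Dnmt3b, a de novo DNA methyltransferase, was at 20.4, 17.7, 22.8 and 21.5 CPM in C1M and at 537, 550, 560 and 476 CPM in C1MDT (log2 4.68, SE 0.11, FDR 1.5e-52). Neither gene had a C1M library near any C1MDT library. Fgf5, the classical epiblast ligand, stayed low in absolute terms, at 0, 0, 0.326 and 0.826 CPM in C1M and at 7.5, 12.2, 11.4 and 13.1 CPM in C1MDT, a count ratio of 40.6 (13.6 to 200). Otx2, the homeobox factor that starts the formative programme, went from 109 ± 10.8 to 321 ± 26.8 CPM (log2 1.55, SE 0.08), and the carbonic anhydrase gene Car14 from 1.53 ± 0.761 to 57.4 ± 4.29 CPM (log2 5.13, SE 0.25). Foxd3, a forkhead factor expressed in naive and formative cells, was the member that fell, from 27.5 ± 4.01 to 10.9 ± 2.51 CPM (log2 -1.34, SE 0.20, FDR 2.0e-09).

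The de novo methylation machinery rose. Of 17 DNA methylation genes, 4 (23.5%) were higher and 7 (41.2%) lower, against 24.5% and 27.9% of all genes. Dnmt3l, the cofactor of the de novo enzymes, was at 9.76, 10.3, 20.9 and 7.43 CPM in C1M and at 384, 355, 391 and 425 CPM in C1MDT (log2 4.95, SE 0.15, FDR 6.1e-27). Dnmt3a went from 43.6 ± 3.45 to 286 ± 12.8 CPM (log2 2.71, SE 0.09). The demethylation-linked gene Gadd45b went the other way with Tet2, from 61.9 ± 9.38 to 13.1 ± 2.83 CPM (log2 -2.20, SE 0.16).

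PD blocks MEK in the day-0 medium, and feedback genes of the ERK pathway were mostly higher at day 4. Of 21 ERK feedback and target genes tested, 11 were higher and 4 lower, with a summed level of 604 to 653 CPM in C1M and 1150 to 1240 CPM in C1MDT. Etv4, an ETS factor induced by FGF signals, was at 8.07, 5.68, 8.48 and 7.02 CPM in C1M and at 112, 103, 118 and 138 CPM in C1MDT (log2 4.00, SE 0.18, FDR 5.3e-29). The feedback inhibitor Spry4 had a count ratio of 57.6 (9.94 to 2310). Myc had no count in C1M and 0, 1.84, 1.4 and 2.06 CPM in C1MDT, at least 1.16-fold higher. Not every ERK-linked gene rose, since the immediate early gene Fos went from 13.5 ± 1.82 to 1.2 ± 0.639 CPM (log2 -3.44, SE 0.42) and Spry1 had a count ratio of 3.59 (1.74 to 8.12), C1M over C1MDT. Of 16 FGF ligands and receptors, 10 were higher and 2 lower, while their summed level was lower, 482 to 534 CPM in C1M and 297 to 329 CPM in C1MDT. The list median of 1.76 on the log2 scale became -0.18 when every library had to reach 1 CPM. One of the falls was Fgf4, the autocrine ligand of naive cells, from 369 ± 25 to 102 ± 8.37 CPM (log2 -1.85, SE 0.08). Fgfbp1, a carrier that releases FGFs from matrix, was without a count in C1M and at 2.88, 3.32, 2.51 and 5.16 CPM in C1MDT, at least 3.05-fold higher.

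**Figure D2:**
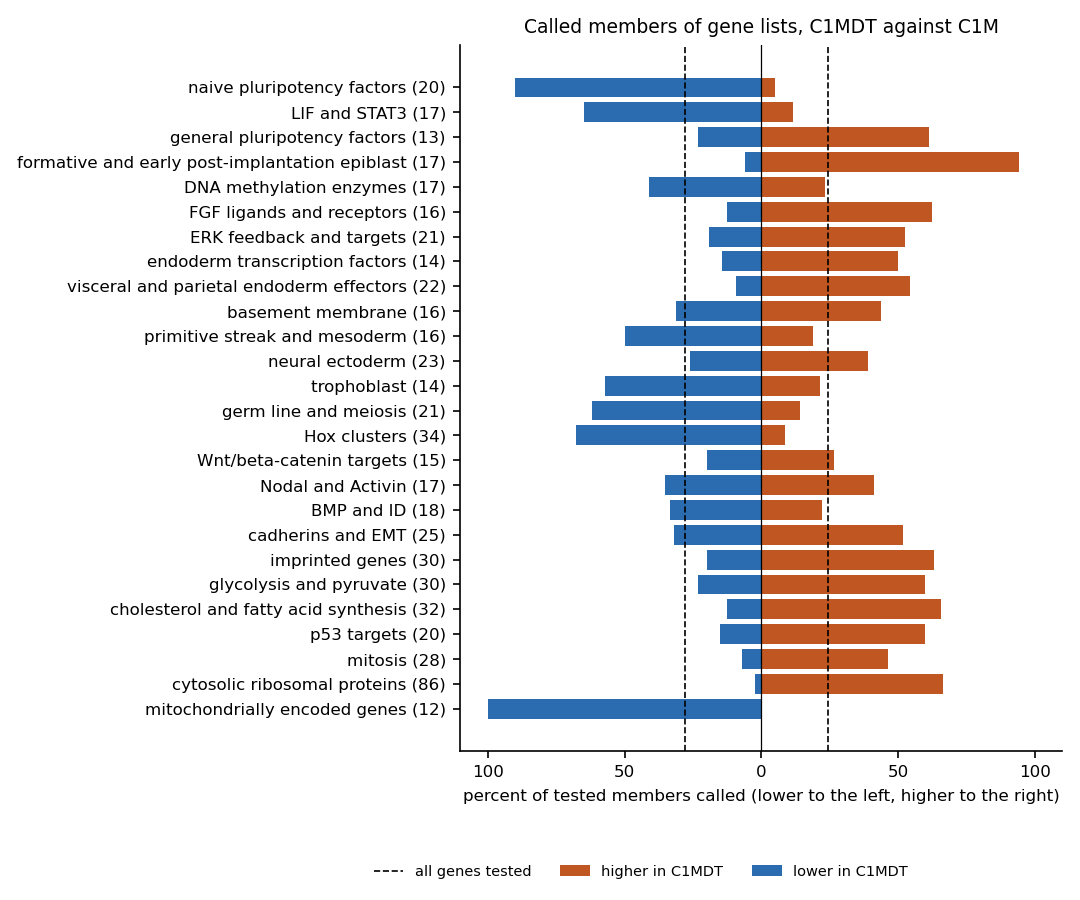
Percent of the tested members of 26 gene lists called lower (bars to the left) and higher (bars to the right) in C1MDT than in C1M, with the number tested in brackets and dashed lines at the percents over all genes tested (27.9 and 24.5). The naive factors lie almost all on the lower side (18 of 20) and the formative genes on the higher side (16 of 17), whereas the neural genes (9 higher, 6 lower of 23) lie on both.

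Genes of extraembryonic endoderm and of basement membrane were among the largest rises at high expression. Dab2, an endocytic adaptor of visceral endoderm, and the paired collagen genes Col4a1 and Col4a2 are shown with the sequence at their starts, since their means rose 28.6-fold, 27.2-fold and 16-fold and the collagens share 1 start region. The 250 bases before the Dab2 start (chr15:6299539-6299788, GRCm38.p6, plus strand, RefSeq) and the segment between the opposite starts of Col4a1 and Col4a2 (chr8:11312805-11312826, plus strand) read as follows, with capitals for a match to AGATAA or TGATAA, searched on both strands as GATA-type words.
Dab2: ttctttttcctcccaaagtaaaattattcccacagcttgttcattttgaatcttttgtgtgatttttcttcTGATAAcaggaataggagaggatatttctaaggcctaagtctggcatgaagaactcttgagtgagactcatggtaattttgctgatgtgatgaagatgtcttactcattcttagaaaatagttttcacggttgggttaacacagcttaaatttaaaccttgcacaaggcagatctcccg
Col4a1 and Col4a2: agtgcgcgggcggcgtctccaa
The Dab2 stretch holds 1 such match, and 16.9% of all 27025 promoter entries hold at least 1, as do 9.23% of the 11667 entries of tested genes. Among the listed endoderm effectors 2 of 18 entries had a match, among the endoderm transcription factors 1 of 8, and among the basement membrane genes 0 of 11. Spink1, Lama1, Gata6 and Sox17 had no entry.

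Dab2 itself was at 14.9, 18.1, 21.5 and 8.26 CPM in C1M and at 414, 523, 437 and 418 CPM in C1MDT (log2 4.80, SE 0.19, FDR 6.1e-18). Of 14 endoderm transcription factors, 7 were higher and 2 lower, with a median log2 difference of 1.34 and a summed level of 85.1 to 96.6 CPM in C1M and 204 to 215 CPM in C1MDT. Gata6, the factor that specifies primitive endoderm, was at 3.82, 4.61, 2.61 and 4.13 CPM in C1M and at 38.1, 44.2, 49.1 and 47.1 CPM in C1MDT (log2 3.57, SE 0.22, FDR 1.0e-33). Every C1MDT library exceeded every C1M library for Gata6, at a modest absolute level. Foxa2 went from 3.15 ± 2 to 33 ± 2.47 CPM (log2 3.39, SE 0.25), Foxq1 from 2.01 ± 0.844 to 19.5 ± 2.99 CPM (log2 3.22, SE 0.30), Gata4 from 5.46 ± 1.75 to 24.5 ± 2.22 CPM (log2 2.13, SE 0.24) and Sox17 from 4.76 ± 2.4 to 20.4 ± 2.51 CPM (log2 2.09, SE 0.25). When every library had to reach 1 CPM, which leaves out genes near 0 in any group, none of the rises remained among the genes tested and the median was -0.13. Gsc and Eomes, which also mark the primitive streak, were the 2 that fell.

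Among 22 of 26 visceral and parietal endoderm effectors that were tested, 12 were higher, 2 lower and 8 not called, with a median of 1.14. Amn, the partner of Cubn in endocytosis, was at 5.09, 4.97, 4.89 and 9.49 CPM in C1M and at 126, 125, 140 and 106 CPM in C1MDT (log2 4.36, SE 0.18, FDR 2.2e-38). The 2 that fell were Fst, an activin antagonist (a count ratio of 7.57, with an interval of 4.22 to 14.7, C1M over C1MDT), and Apoe, a lipoprotein of high level (1750 ± 72 to 1390 ± 209 CPM, log2 -0.33). Afp and Cer1, markers of visceral endoderm and its anterior part, did not reach the filter and had at most 1 and 3 counts in any of the 8 libraries. Transcripts of plasma proteins were abundant and not called. Alb was at 481 ± 60 CPM in C1M and 526 ± 83.2 CPM in C1MDT (log2 0.12, SE 0.18, FDR 0.592) and Apoa1 at 399 ± 51.2 and 441 ± 56.8 CPM (log2 0.14, SE 0.16, FDR 0.48). Over all 32 libraries Alb ranged from 340 to 1220 CPM, with an Alb to Apoa1 ratio between 1.07 and 1.37, and where these transcripts came from was not tested.

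Of 16 basement membrane genes, 7 were higher, 5 lower and 4 not called, with a median log2 difference of 0.27. The summed level was 2310 to 2520 CPM in C1M and 5420 to 6050 CPM in C1MDT, and most of its rise came from Sparc. Col4a1, which forms the type IV collagen trimer with Col4a2, was at 21.6, 13.8, 30.3 and 20.6 CPM in C1M and at 556, 611, 597 and 588 CPM in C1MDT (log2 4.75, SE 0.12, FDR 2.4e-40). Col4a2 was at 11.5, 14.5, 19.6 and 16.1 CPM in C1M and at 246, 281, 221 and 241 CPM in C1MDT (log2 3.98, SE 0.12, FDR 6.3e-65). For both chains the lowest C1MDT library lay far above the highest C1M library. Lama1, a laminin chain of early basement membranes, went from 17.3 ± 2.93 to 208 ± 10.8 CPM (log2 3.59, SE 0.16), Col18a1 from 22.5 ± 2.95 to 280 ± 22.8 CPM (log2 3.61, SE 0.11) and the matrix protein gene Sparc from 855 ± 46.1 to 3250 ± 219 CPM (log2 1.93, SE 0.07). Other components fell, namely Nid1, which links laminin to collagen IV (254 ± 9.42 to 17.2 ± 1.93 CPM, log2 -3.89), Fn1 (552 ± 36.4 to 153 ± 12.4 CPM, log2 -1.85) and Lama5 (69.9 ± 6.28 to 26.6 ± 5.13 CPM, log2 -1.37).

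Mesoderm genes did not rise as a group. Of 20 primitive streak and mesoderm genes, 16 were tested. Of these 3 (18.8%) were higher and 8 (50%) lower, against 24.5% and 27.9% of all genes. The list had a median of -1.06 and a summed level of 59.7 to 75.5 CPM in C1M and 34.3 to 42.7 CPM in C1MDT. The streak factors T, Evx1, Tbx6 and Msgn1 did not pass the filter and had at most 1, 2, 3 and 0 counts in any of the 8 libraries. Lhx1, a LIM homeobox factor of the node and endoderm, was higher, at a count ratio of 13.3 (5.87 to 37.4, FDR 6.3e-09). Gsc, an organiser homeobox gene, was lower, at a count ratio of 32.4 (13.6 to 101), C1M over C1MDT. Foxc1 had a count ratio of 25.1 (6.59 to 213), C1M over C1MDT, and Foxc2, at 3.4, 1.06, 1.96 and 1.24 CPM in C1M, had no count in C1MDT, at least 1.63-fold lower. Mixl1 was at 1.7 to 2.48 CPM in C1M and had 1 library with a count in C1MDT (0.369 CPM). Eomes was at 28, 27.7, 22.2 and 29.7 CPM in C1M and at 24.8, 13.6, 18.2 and 21.7 CPM in C1MDT, with overlapping libraries (log2 -0.48, SE 0.17, FDR 0.0143), and its call was lost without C1MDT replicate 2.

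NDiff227 is a neural medium, and 9 of 23 neural ectoderm genes tested (39.1%) were higher, 6 (26.1%) lower and 8 not called, against 24.5% higher and 27.9% lower over all genes. Sox1, the earliest neural plate factor, was at 22.9, 12.8, 15.6 and 18.2 CPM in C1M and at 170, 153, 174 and 164 CPM in C1MDT (log2 3.27, SE 0.12, FDR 1.4e-56). The eye and forebrain factor Pax6 went from 1.9 ± 0.436 to 15.5 ± 2.7 CPM (log2 2.99, SE 0.31), and the Notch target Hes5, without a count in C1M, reached 0.688 to 1.47 CPM, at least 1.03-fold higher. Falling were Sox21 (44.8 ± 5.55 to 11.1 ± 3.18 CPM, log2 -2.0), Six3 (10.7 ± 1 to 2.36 ± 1.62 CPM, log2 -2.10) and Pax3, with a count ratio of 7.52 (3.19 to 21.6). Sox1 thus rose in every library without a rise shared by all listed neural genes.

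The Hox clusters, which pattern the body axis, were mostly lower, with 23 of 34 tested genes lower and 3 higher and a summed level of 198 to 218 CPM in C1M and 79.6 to 89.5 CPM in C1MDT. Hoxb1 was among the higher ones, at 0.849, 0, 1.63 and 0 CPM in C1M and 11.4 to 21 CPM in C1MDT, a count ratio of 24.4 (11.6 to 61.5, FDR 8.2e-15). Hoxc12 was at 2.55, 3.55, 4.89 and 5.37 CPM in C1M and had no count in C1MDT, at least 3.47-fold lower, and Hoxd11 had a count ratio of 29 (9.61 to 144), C1M over C1MDT.

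In the other cell type lists the share of higher genes was near or below that of all genes tested (24.5% higher, 27.9% lower). Of 14 trophoblast genes tested, 3 (21.4%) were higher and 8 (57.1%) lower. The epithelial keratins Krt8 and Krt18 were among the higher ones (7.78 ± 0.998 to 19.9 ± 1.38 CPM and 8 ± 0.618 to 30 ± 6.32 CPM), while Gata3 was lower, at a count ratio of 18.1 (8.92 to 42.7), C1M over C1MDT. Among 21 germ line and meiosis genes 13 (61.9%) were lower and 3 (14.3%) higher, with the meiotic entry gene Stra8 going from 62.3 ± 8.34 to 1.95 ± 0.787 CPM (log2 -5.05, SE 0.24) and the RNA-binding gene Dnd1 from 2.5 ± 1.46 to 8.48 ± 0.505 CPM (log2 1.73, SE 0.35). None of 12 two-cell-like genes tested was higher and 5 (41.7%) were lower. Fibroblast markers summed to 38 to 45.4 CPM in C1M and 13.7 to 24.8 CPM in C1MDT (0 of 8 tested higher, 4, or 50%, lower). Blood and endothelial markers summed to 20.9 to 26.3 and 20.2 to 24.1 CPM (2 of 8 higher and 2 lower, 25% each).

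Wnt target genes did not stand apart from the genes tested by their counts. Of 15 β-catenin targets tested, 4 (26.7%) were higher, 3 (20%) lower and 8 not called, against 24.5% and 27.9% of all genes, and the list median of 0.49 on the log2 scale became -0.27 when every library had to reach 1 CPM. Their summed level was 56.1 to 72.7 CPM in C1M and 294 to 318 CPM in C1MDT, where Lef1 and Ccnd1 made up most of it. Ccnd1, the D-type cyclin of G1, was at 17.4, 26.3, 24.1 and 21.5 CPM in C1M and at 122, 142, 141 and 143 CPM in C1MDT (log2 2.61, SE 0.12, FDR 1.5e-46). Dkk1, a secreted Wnt antagonist, had a count ratio of 21.8 (7.14 to 108), and Cdx1, a caudal homeobox target, one of 44.1 (7.5 to 1780) in the opposite direction. The targets Sp5, Lgr5 and Rnf43 did not pass the filter and had at most 2, 3 and 3 counts per library. Among 41 Wnt pathway components, 10 (24.4%) were higher and 14 (34.1%) lower. Their median of 0.21 on the log2 scale became -0.06 when every library had to reach 1 CPM.

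Some Nodal and BMP readouts changed by large amounts, while the counts of both lists held rises and falls. Lefty1, a Nodal antagonist and target, was at 3.82, 2.48, 12.4 and 2.89 CPM in C1M and at 167, 139, 147 and 126 CPM in C1MDT (log2 4.64, SE 0.24, FDR 8.3e-16). Lefty2 went from 3.37 ± 2.41 to 38.3 ± 3.94 CPM (log2 3.41, SE 0.24). In all, 7 of 17 Nodal pathway genes tested were higher and 6 lower. Of 18 BMP and ID genes, 4 (22.2%) were higher and 6 (33.3%) lower, near the 24.5% and 27.9% of all genes. Those that rose included Id1 from 2.34 ± 1.57 to 17.8 ± 3.27 CPM (log2 2.92) and Id2 from 24.5 ± 1.33 to 81.7 ± 6.05 CPM (log2 1.74), and those that fell the inhibitory Smad7, from 192 ± 19.4 to 22.3 ± 6.29 CPM (log2 -3.07). Of 17 retinoid handling genes, 8 were higher and 3 lower, including Crabp2, a retinoic acid carrier (1.43 ± 1.03 to 36.9 ± 7.27 CPM, log2 4.56), and Dhrs3, a retinal reductase (21.6 ± 0.554 to 2.34 ± 1.12 CPM, log2 -3.26).

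Cdh1, the epithelial cadherin that β-catenin tethers to actin, went from 619 ± 20.4 to 191 ± 17.6 CPM (log2 -1.70, SE 0.08), and the intermediate filament gene Vim from 31.1 ± 3.49 to 202 ± 6.81 CPM (log2 2.69, SE 0.10). They belong to a list of cadherin and EMT genes of which 13 of 25 tested were higher and 8 lower. S100a6 was one of the steepest falls on that list, from 173 ± 6.27 to 14.7 ± 3.72 CPM (log2 -3.57, SE 0.13).

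Metabolic lists rose more than they fell. Of 30 glycolysis and pyruvate genes, 18 were higher and 7 lower, with a summed level of 4380 to 4770 CPM in C1M and 7740 to 8520 CPM in C1MDT. Slc16a3, a lactate exporter, was at 25.5, 29.8, 26.1 and 24.8 CPM in C1M and at 298, 248, 271 and 241 CPM in C1MDT (log2 3.31, SE 0.11, FDR 3.9e-59). The glucose transporter gene Slc2a1 went from 47.6 ± 3.94 to 252 ± 16.9 CPM (log2 2.39, SE 0.10), and the phosphofructokinase genes went opposite ways, Pfkl from 50.9 ± 8.61 to 283 ± 14.5 CPM (log2 2.47) and Pfkp from 351 ± 15.2 to 93.5 ± 13.4 CPM (log2 -1.92). Of 32 cholesterol and fatty acid synthesis genes, 21 were higher and 4 lower. The sterol enzyme genes Lss and Cyp51 went from 19.3 ± 0.746 to 56.6 ± 5.44 CPM and from 160 ± 13.3 to 466 ± 13 CPM (log2 1.56 and 1.55).

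Cytosolic ribosomal protein genes rose by small amounts in most members, with 57 of 86 higher, 2 lower and a median log2 difference of 0.31. Mitochondrially encoded genes all fell, 12 of 12 tested, with a median of -1.77. The complex I subunit gene mt-Nd4 was at 7040, 6020, 6750 and 6290 CPM in C1M and at 1900, 2130, 1250 and 1780 CPM in C1MDT (log2 -1.89, SE 0.15, FDR 4.1e-11), and mt-Nd1 went from 6010 ± 237 to 1900 ± 237 CPM (log2 -1.67, SE 0.09). The nuclear genes of the respiratory chain did not move with them, since 39 of 80 tested were higher and 11 lower. Malat1, a nuclear-retained noncoding RNA, was at 10100, 8590, 10400 and 9160 CPM in C1M and at 910, 1280, 971 and 1270 CPM in C1MDT (log2 -3.11, SE 0.13, FDR 3.6e-17), and Neat1, the paraspeckle RNA, went from 294 ± 10.2 to 44.3 ± 4.05 CPM (log2 -2.73, SE 0.09). These nuclear RNAs fell beside a share of reads assigned to no gene of 19.7% to 21.2% in C1M and 10.8% to 11.2% in C1MDT, whose part in the fall was not tested.

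Mitosis, DNA replication and stress lists held more rises than falls, and G1 genes more falls than rises. Of 28 mitosis genes, 13 were higher and 2 lower, as with the anaphase activator Cdc20 (88.4 ± 6.42 to 286 ± 41.9 CPM, log2 1.70) and the centromeric histone gene Cenpa (51.2 ± 3.5 to 152 ± 22.4 CPM, log2 1.56). DNA replication genes had 16 of 35 higher and 8 lower. Of 23 G1 genes 7 (30.4%) were higher and 9 (39.1%) lower, against 24.5% and 27.9% of all genes, with a median log2 difference of -0.13. Among those that fell were the D-type cyclin gene Ccnd3, from 582 ± 42.9 to 350.0 ± 12.4 CPM (log2 -0.73, SE 0.08), and the pocket protein gene Rbl1, from 28.9 ± 5.14 to 14.8 ± 1.81 CPM (log2 -0.97, SE 0.18). Among those that rose were Ccnd2, going from 5.72 ± 1.59 to 80.9 ± 7.18 CPM (log2 3.79, SE 0.18), and Cdk6, from 10.4 ± 2.83 to 30.1 ± 0.137 CPM (log2 1.54, SE 0.19). Of 20 p53 targets tested, 12 were higher and 3 lower, including the death gene Bbc3 (8.03 ± 0.556 to 51.1 ± 5.99 CPM, log2 2.66) and the p53 relative Trp73 (a count ratio of 10.6, with an interval of 5.15 to 25.3). The stress-induced MTOR inhibitor Ddit4 went from 179 ± 6.8 to 661 ± 156 CPM (log2 1.88, SE 0.17), and 12 of 23 genes of the integrated stress response were higher and 3 lower. Of 30 imprinted genes tested, 19 were higher and 6 lower, and one of the falls was Plagl1, at a count ratio of 25.1 (13.4 to 53), C1M over C1MDT.

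The knockout differentiated with TMP alone gave a day-4 against day-0 change from libraries that the C1MDT and C1M comparison does not use. From C1 to C1T, 7528 genes (49.3%) changed, 3722 (24.4%) higher and 3806 (24.9%) lower. Of the 3743 genes that rose from C1M to C1MDT, 2287 also rose in the knockout and 221 fell there, and of the 4267 that fell, 2511 also fell and 189 rose. The change itself differed between induced moderate cells and the knockout at 3733 genes (24.4%), with 1810 (11.8%) more positive and 1923 (12.6%) more negative in the induced cells.

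Basement membrane genes differed from the knockout in 1 direction, with 13 of 16 more positive and 0 more negative in induced cells, and in the knockout itself 12 fell and 1 rose. Their summed level was 3580 CPM in C1 and 788 CPM in C1T at the median library, against 2460 CPM in C1M and 5550 CPM in C1MDT. Sparc was at 1330 ± 132 CPM in C1 and 218 ± 19.4 CPM in C1T, so it fell in the knockout and rose under induction (difference of log2 changes 4.54, SE 0.10, FDR 1.2e-83). Lama1 went from 13.9 ± 2.38 to 4.48 ± 1.42 CPM in the knockout (difference 5.27, SE 0.38, FDR 1.2e-14). Col4a1 was at 22.6 to 27.3 CPM in C1 and 25.5 to 35 CPM in C1T (difference 4.43, SE 0.23, FDR 5.4e-24), and Col4a2 at 16.4 to 18.7 and 10.5 to 13.7 CPM (difference 4.50, SE 0.24, FDR 2.7e-36). None of these 4 genes in the knockout came near its level in C1MDT at day 4.

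Endoderm genes differed in the same direction. Of the 14 endoderm transcription factors 6 were more positive and 0 more negative, and of the 22 effectors 8 and 1. When every library had to reach 1 CPM, these tallies were 0 and 0 of 4 and 5 and 0 of 13. Spink1 was at 1.56 to 4.53 CPM in C1 and 2.5 to 5.76 CPM in C1T (difference 5.58, SE 0.59, FDR 7.0e-12), and Dab2 at 4.15 to 9.06 and 6.53 to 14.8 CPM (difference 4.00, SE 0.54, FDR 2.2e-06). Amn was at 1.92 to 3.4 and 2.91 to 4.77 CPM (difference 3.91, SE 0.56), Foxa2 at 0.519 to 3.36 and 0.653 to 2.88 CPM (difference 3.30, SE 0.63) and Gata4 at 1.92 to 7.36 and 0 to 4.58 CPM (difference 2.72, SE 0.52). None of these 5 endoderm genes was called as changed in the knockout itself. Sox17 was at 2.36 ± 0.975 CPM in C1 and 0.24 ± 0.48 CPM in C1T (FDR of the difference 5.4e-08). Gata6 was at 0.479 to 2.94 CPM in C1 and 1.96 to 4.58 CPM in C1T (FDR of the difference 0.00242, and 0.257 without C1 replicate 1). Hkdc1 had no count in C1T (FDR 3.2e-06), whereas the differences for Cubn (FDR 0.0181) and S100g (FDR 0.0139) had an FDR of 0.923 without C1 replicate 1 and of 0.933 without C1 replicate 2.

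**Figure D3:**
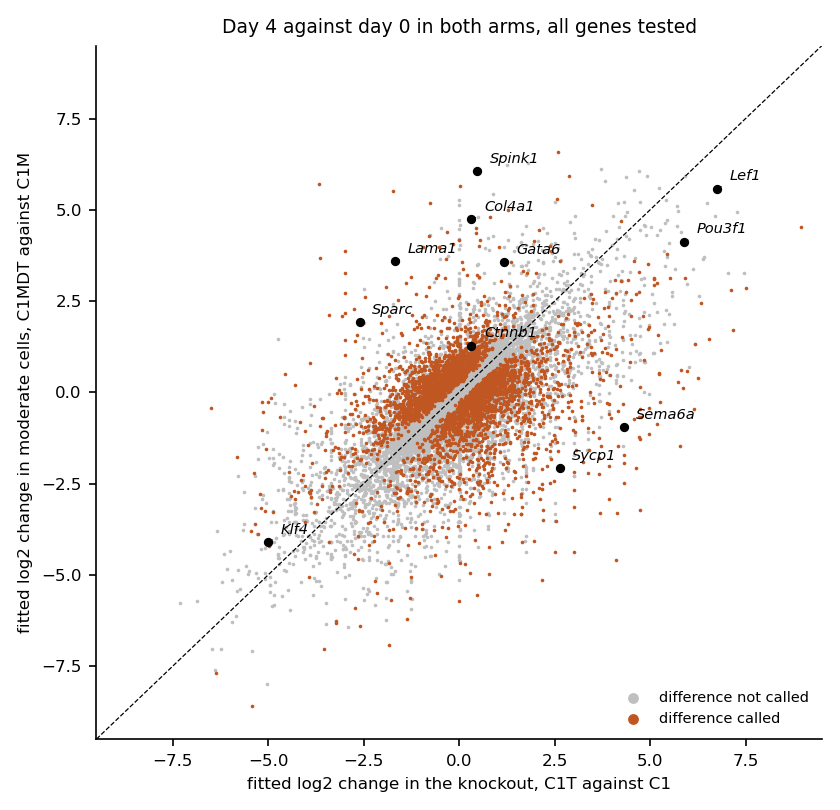
Log2 change from day 0 to day 4 in the knockout with TMP alone (C1T against C1, horizontal) and in induced moderate cells (C1MDT against C1M, vertical), 1 point per gene tested, orange where the changes differed at an FDR of 0.05, with named genes in black and a dashed diagonal for equal changes. Values of genes near 0 counts are fitted and depend on the prior count. Col4a1, Lama1 and Sparc lie far above the diagonal, and Sema6a and Sycp1 far below it.

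In the knockout 17 of 20 naive factors also fell and 16 of 17 formative genes also rose. Of 20 naive factors 10 had a more negative and 2 a more positive change under induction. Esrrb was at 509 ± 21.1 CPM in C1 and 82.3 ± 9.63 CPM in C1T (difference -0.61, SE 0.15, FDR 7.2e-04). Nanog was at 581 ± 44.3 and 90 ± 5.68 CPM (difference -0.33, SE 0.13, FDR 0.0422), a call lost with DESeq2 (FDR 0.0694), with the replicate block (FDR 0.0534) and without most single libraries. Of the 17 formative genes 8 were more negative and 4 more positive, and Pou3f1 rose further in the knockout, from 4.15 to 4.53 CPM in C1 to 225 to 304 CPM in C1T (difference -1.74, SE 0.38, FDR 4.6e-04). Lef1 also rose in the knockout, from 2.51 ± 0.775 to 270 ± 19.6 CPM, and its called difference (-1.17, SE 0.44, FDR 0.0403) rested on C1M replicate 3, without which it was -0.16 with an FDR of 0.912.

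Several of the most negative differences were genes that the knockout raised at day 4 and induced cells did not or did less. Sema6a, a transmembrane semaphorin, was at 0.959 to 2.94 CPM in C1 and 30.7 to 48 CPM in C1T, against 3.92 ± 0.713 CPM in C1M and 2.08 ± 0.638 CPM in C1MDT (difference -5.25, SE 0.57, FDR 2.7e-14). Sycp1, a synaptonemal complex gene, rose in the knockout from 4.53 ± 1.4 to 27.3 ± 5.52 CPM and fell in induced cells from 28.4 ± 1.67 to 6.89 ± 1.75 CPM (difference -4.69, SE 0.32, FDR 1.9e-27). Bcl11a, a neural zinc finger gene, reached 45.8 to 66.3 CPM in C1T and 17.5 to 26 CPM in C1MDT (FDR of the difference 4.3e-08). Hoxb1 reached 68.2 to 96.2 CPM in C1T and 11.4 to 21 CPM in C1MDT (FDR 0.0069, and 0.207 without C1M replicate 3), and Col6a5 11.9 to 19.7 CPM in C1T and 1.15 to 5.58 CPM in C1MDT (FDR 4.8e-05). On the other side, Cemip, a hyaluronidase, fell in the knockout from 14.5 to 16.8 CPM to 0 to 0.48 CPM and stayed at 5.19 to 6.88 CPM in C1MDT (FDR 2.0e-11). Of 23 neural genes 8 were more negative and 1 more positive under induction, and of 21 germ line genes 14 and 1. The germ line sum at the median library was 231 CPM in C1 and 459 CPM in C1T, against 628 CPM in C1M and 284 CPM in C1MDT. It thus lay above the knockout at day 0 and below it at day 4. The neural sum was 477 and 669 CPM in the knockout, against 437 and 634 CPM in C1M and C1MDT.

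Glycolysis genes differed mostly upwards, with 20 of 30 more positive and 0 more negative. Their summed level was 6610 CPM in C1 and 6590 CPM in C1T at the median library, so the higher day-4 level in C1MDT (7860 CPM) came with a lower day-0 level in C1M (4550 CPM). Slc16a3 went from 101 ± 15 to 323 ± 17 CPM in the knockout (difference 1.63, SE 0.15) and Pfkl from 137 ± 9.94 to 203 ± 23.8 CPM (difference 1.91, SE 0.13). Mitochondrially encoded genes also fell in the knockout, 8 of 12 with 0 higher, and their summed level at the median library was 23800 CPM in C1 and 16900 CPM in C1T, against 23400 CPM in C1M and 7240 CPM in C1MDT. Under induction 6 of the 12 had a more negative change, among them mt-Nd4, which was not called in the knockout (5750 ± 941 CPM in C1, 7020 ± 306 CPM in C1T, difference -2.18, SE 0.21, FDR 9.7e-09). In C1MV, without inducers for the 4 days, the summed level of the mitochondrially encoded genes was 8060 CPM at the median library. Of the 12, 3 were lower in C1MDT than in C1MV and 0 higher. Of 86 ribosomal protein genes, 41 had a more negative and 4 a more positive change under induction than in the knockout. Their summed level at the median library was 75500 CPM in C1 and 110000 CPM in C1T, against 95700 CPM in C1M and 123000 CPM in C1MDT. The induced cells thus lay above the knockout on both days. Ctnnb1 differed by 0.96 (SE 0.33, FDR 0.0235), with an FDR between 0.0528 and 0.129 when C1 replicate 1, C1 replicate 4 or C1M replicate 3 was left out.

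**Figure D4:**
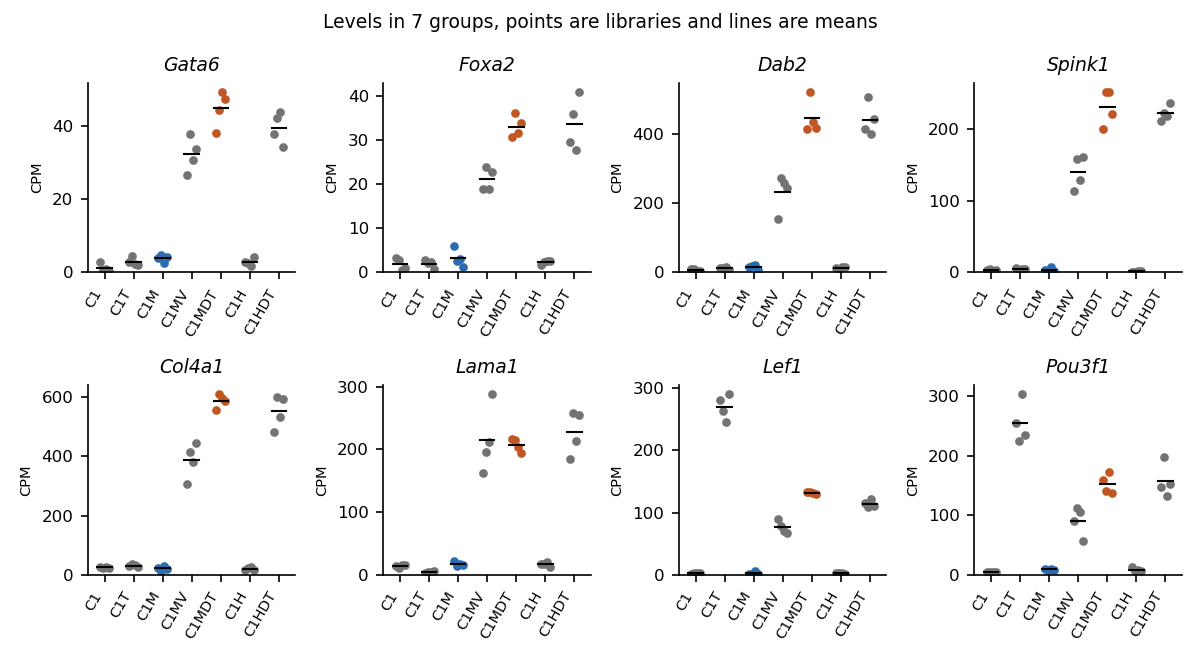
Level (CPM, linear axis) of Gata6, Foxa2, Dab2, Spink1, Col4a1, Lama1, Lef1 and Pou3f1 in C1, C1T, C1M, C1MV, C1MDT, C1H and C1HDT, with 1 point per library and a line at the mean. Col4a1 lies between 556 and 611 CPM in C1MDT and between 25.5 and 35 CPM in C1T, and Lef1 is high at day 4 in both.

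Between C1MDT, with the inducers kept for the 4 days, and C1MV, with them withdrawn, 1924 genes (12.6%) differed. In C1MDT 1015 (6.64%) were higher and 909 (5.95%) lower. Doxycycline, TMP and the exogenous protein differ together in this comparison, so their parts cannot be told apart. Ctnnb1 was at 6.91 to 12.1 CPM in C1MV and 25.4 to 34.1 CPM in C1MDT (log2 1.74, SE 0.21, FDR 5.6e-12). Naive factors were lower when the inducers were kept, 15 of 20 with 0 higher, and the summed level was 3750 CPM in C1MV and 2080 CPM in C1MDT at the median library. In the knockout at day 4 (C1T), without doxycycline, it was 2240 CPM. Nanog was at 148 to 219 CPM in C1MV (log2 -1.15, SE 0.09, FDR 1.7e-20), Esrrb at 119 to 174 CPM (log2 -1.85, SE 0.11, FDR 7.4e-26), Nr0b1, an orphan receptor of naive cells, at 21.3 to 43.5 CPM (log2 -2.26, SE 0.35) and Jam2 at 29.3 to 45.6 CPM (log2 -2.16, SE 0.19). The C1MDT libraries lay below the C1MV libraries for each of these 4 genes.

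Formative genes were higher with the inducers kept, 9 of 17 with 0 lower. Their summed level at the median library was 1420 CPM in C1MV, 2380 CPM in C1MDT and 2820 CPM in C1T. Dnmt3b was at 219 to 271 CPM in C1MV (log2 1.14, SE 0.09, FDR 7.4e-19), Fgf5 at 3.23 to 7.13 CPM (log2 1.36, SE 0.32, FDR 6.8e-04) and Pou3f1 at 56.4 to 112 CPM (log2 0.71, SE 0.13, FDR 7.0e-05). Endoderm and matrix genes were higher in part. Spink1 was at 115 to 161 CPM in C1MV (log2 0.73, SE 0.11, FDR 2.2e-07), Foxa2 at 18.9 to 24 CPM (log2 0.65, SE 0.18, FDR 0.00608), Col4a1 at 308 to 447 CPM (log2 0.61, SE 0.09, FDR 5.9e-07) and Sparc at 1980 to 2410 CPM (log2 0.52, SE 0.07, FDR 7.4e-11), each below all 4 C1MDT libraries. Lama1, at 162 to 288 CPM, was not called (log2 -0.03, SE 0.12, FDR 0.922). Dab2 was at 156 to 273 CPM in C1MV (log2 0.95, SE 0.14, FDR 1.8e-05) and Gata6 at 26.6 to 37.8 CPM (log2 0.49, SE 0.15, FDR 0.0184), a call lost without C1MV replicate 1 or 3 or C1MDT replicate 3. The basement membrane list had 5 of 16 higher and 3 lower, the effectors 4 higher and 4 lower of 22, and the endoderm transcription factors 2 higher and 1 lower of 14. The summed level of the effectors at the median library was 5130 CPM in C1MV and lower in C1MDT, at 3910 CPM.

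Cholesterol and fatty acid synthesis genes were higher almost throughout, with 27 of 32 higher under continued induction and 0 lower (median log2 0.83, all genes -0.02). The summed level at the median library was 3400 CPM in C1MV and 6240 CPM in C1MDT, against 4380 CPM in C1M. In the knockout without doxycycline it was 6200 CPM in C1 and 5390 CPM in C1T, so C1MV was the lowest of these groups. Aacs, which makes acetoacetyl-CoA, was at 5.64 to 9.99 CPM in C1MV and 18.4 to 28.3 CPM in C1MDT (log2 1.58, SE 0.23, FDR 2.0e-08). The kinase gene Pim2 (26.5 to 35.6 against 78.2 to 93.5 CPM, log2 1.47) and the matrix gene Egflam (2.82 to 8.56 against 12.5 to 17.6 CPM, log2 1.53) were further large rises. Lrrc55, a potassium channel subunit, was at 16.1 to 26.4 CPM in C1MV and at 0 to 0.344 CPM in C1MDT (FDR 5.4e-22). Large falls with the inducers kept included Msc (6.42 to 17.3 against 1.95 to 3.79 CPM, log2 -2.22), Aqp3 (7.13 to 8.99 against 1.38 to 2.31 CPM, log2 -2.12), the lipolysis inhibitor G0s2 (11.6 to 17.1 against 2.51 to 4.61 CPM, log2 -2.09) and the protease gene Napsa (11.3 to 22.2 against 3.69 to 4.19 CPM, log2 -2.0).

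**Figure D5:**
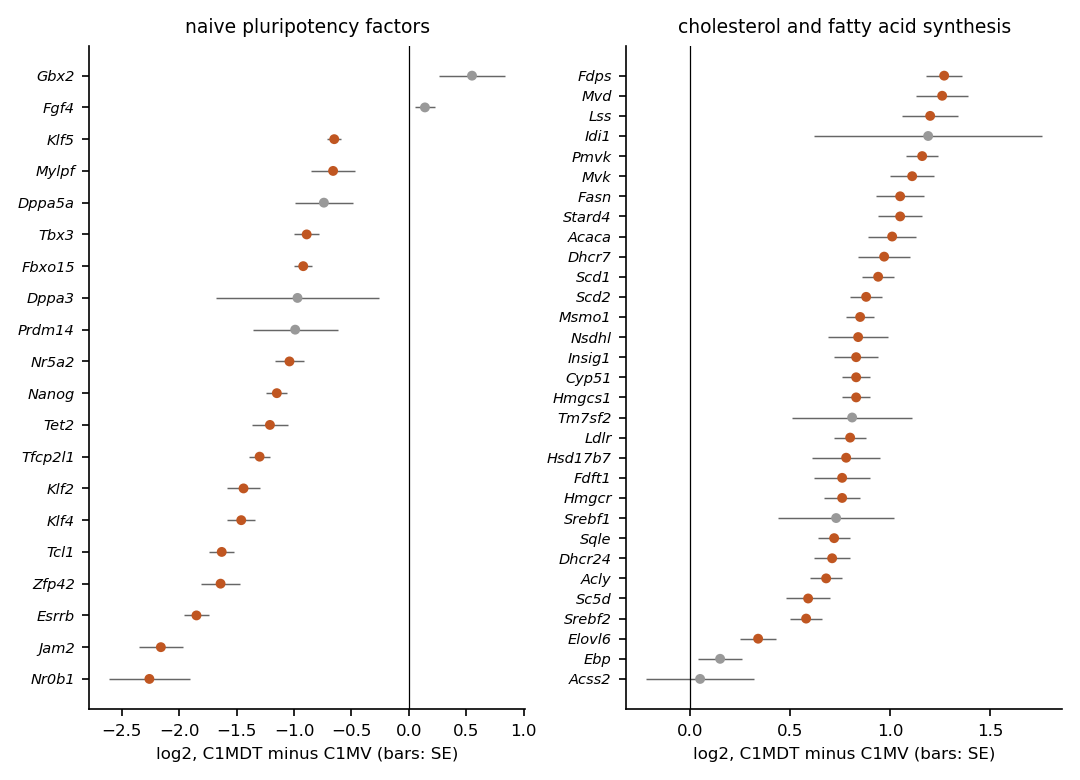
Log2 difference of C1MDT from C1MV for the naive factors (left) and the cholesterol and fatty acid synthesis genes (right, 1 of them not drawn), with bars for the SE and orange points for an FDR under 0.05. Of the naive factors 15 of 20 are called, all below 0, and the synthesis genes called lie above 0.

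The moderate and the high fraction changed by different amounts at few genes, 156 (1.02%), of which 41 (0.268%) were more positive and 115 (0.753%) more negative in moderate cells. With 1 library left out the count was 46 to 201 (8 to 71 more positive, 35 to 130 more negative), lowest without C1HDT replicate 4 (46) and C1MDT replicate 4 (55), and with library size alone 71 were more negative. Ctnnb1 stood at 34.9 to 48.7 CPM in C1H and 28.3 to 36.3 CPM in C1HDT, so the day-0 libraries of the high fraction lay above those of the moderate fraction while the day-4 libraries overlapped (difference of log2 changes 1.71, SE 0.25, FDR 1.6e-06). The growth factor gene Fgf1 was at 6.96 to 13.5 CPM in C1H and 5.11 to 12.6 CPM in C1HDT, against 3.4 to 5.87 CPM in C1M and 8.08 to 14.7 CPM in C1MDT (difference 1.69, SE 0.37, FDR 0.00521). Pigf, of the GPI anchor pathway, was at 11.3 ± 1.25 and 29.9 ± 1.87 CPM in the high fraction and at 19.2 ± 4 and 20.6 ± 3.74 CPM in the moderate fraction (difference -1.29, SE 0.27, FDR 0.00211). The Mediator kinase gene Cdk8 (difference 1.23, SE 0.3, FDR 0.0177) had an FDR of up to 0.101 when C1M replicate 2, C1MDT replicate 4, C1H replicate 1 or C1HDT replicate 4 was left out. For the amino acid transporter gene Slc7a7 (-1.44, SE 0.36, FDR 0.0237) it rose to 0.175 without C1M replicate 3 and also passed 0.05 without C1M replicate 2, C1H replicate 1 or 4 or C1HDT replicate 4, and for the small heat shock gene Hspb6 (-1.08, SE 0.25, FDR 0.0124) it was 0.108 without C1MDT replicate 3.

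Ribosomal protein genes made up 25 of the 115 more negative calls and nuclear respiratory chain genes 12, with no member of either list more positive. These tallies were 11 to 27 and 4 to 16 with 1 library left out, both lowest without C1HDT replicate 4, and 16 and 8 with library size alone. The summed ribosomal protein level at the median library was 95700 CPM in C1M and 123000 CPM in C1MDT, and 82300 CPM in C1H and 130000 CPM in C1HDT. Naive factors were at 9800 CPM in C1H and 2180 CPM in C1HDT, and basement membrane genes at 2450 and 5710 CPM, beside 9920 and 2080 CPM and 2460 and 5550 CPM in the moderate fraction.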

How the data were processed

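Libraries were made with QuantSeq, a 3′ mRNA kit. The authors trimmed reads with bbduk, aligned them with STAR to mm10 and counted them per Ensembl gene with htseq-count, and the deposited values are these raw counts, with no filter or batch correction. The labels name a serum and LIF culture and the methods 2i/L for day 0. The labels call the replicates biological, and p-values measure the spread between these libraries only.

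Genes reaching 1 CPM in 4 or more of the 32 libraries (15280 of 31053, of which 31011 had a name in the annotation) were fitted with edgeR 4.0.16 in R 4.3.3 (TMM factors, robust quasi-likelihood test, 8 groups, Benjamini-Hochberg over all genes tested, threshold 0.05), after the scripts were tested on simulated data. Reads assigned to no gene stayed out of library sizes, which set the precision given beside low values. CPM are counts per 1000000 counts on genes after TMM scaling. Genes with no more than 3 counts per library on average in C1M or C1MDT were given as count ratios or bounds (Fst, just above, too), and differences of changes that involve such a group by their FDR. A list member counts as tested where it passed the filter, which a gene can do through the group where it is high. The contrasts with the knockout, the withdrawn cells and the high fraction used the same fit.

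Named genes were Ctnnb1, Axin2, the genes of the study's qPCR, the leading called genes by log2 difference in each contrast above a mean of 10 or 200 CPM with no clone-type name, and for each gene list up to 3 called members that rose most and 3 that fell most. Pou5f1, Otx2, Gata4, Sox17, Amn, Sparc, Mixl1, T, Evx1, Tbx6, Msgn1, Sp5, Lgr5, Rnf43, Afp, Cer1, Cdh1, Vim, Alb, Apoa1, Malat1, Neat1 and genes named outside this rule were chosen after their values were seen. Some named-gene results are not reported here. The members and the gene lists were chosen with earlier results of these data known, so no list count is independent evidence. Promoter sequences came from RefSeq on GRCm38.p6. Alternatives were other size factors, filters, DESeq2 1.42.0, a replicate block, fits of only the groups compared, and leaving out each library.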

Additional observations from a re-analysis of the deposited data

Results flagged for a closer look

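Of 310 gene or measure groups tested for a library standing apart from the other 3, 26 had one, where chance alone gives about 1 in 20. In C1M the library apart was at 0.652 CPM for Scube2, 0.978 for Cubn, 6.19 for Lef1, 55.7 for Hhip, 14.9 for Fbln5, 1160 for Tfcp2l1, 0.326 for Spry4, 47.9 for Gadd45b, 3.26 for Foxq1, 9.49 for Amn, 6.6 for Foxc1, 2.55 for Pax6, 36.5 for Sox21 and 12.4 for Lefty1. In C1MDT it was at 0.279 CPM for Trpa1, 1.03 for Fxyd4, 10.3 for Jam2, 21.9 for Tet2, 4.13 for Lhx1, 0.369 for Mixl1, 122 for Ccnd1, 0.577 for Cdx1, 32.4 for Lefty2, 485 for Cyp51 and 0.344 for Lrrc55, and 1 C1MDT library had 12.57% of its counts on ribosomal protein genes.

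The change from day 0 to day 4 differed between induced moderate cells and the knockout at 3733 genes. Among the named genes the log2 changes differed by 5.58 for Spink1, 5.27 for Lama1, 4.54 for Sparc, 4.5 for Col4a2, 4.43 for Col4a1, 4.0 for Dab2, 3.91 for Amn, 3.3 for Foxa2, 2.72 for Gata4, 1.91 for Pfkl, 1.63 for Slc16a3 and 0.96 for Ctnnb1. More negative under induction were Sema6a (-5.25), Sycp1 (-4.69), mt-Nd4 (-2.18), Pou3f1 (-1.74), Lef1 (-1.17), Esrrb (-0.61) and Nanog (-0.33). With a group at or under 3 counts per library on average, the FDR of the difference was 3.2e-06 for Hkdc1, 0.0181 for Cubn, 0.0139 for S100g, 5.4e-08 for Sox17, 0.00242 for Gata6, 0.0069 for Hoxb1, 0.038 for Dkk1, 4.3e-08 for Bcl11a, 4.8e-05 for Col6a5 and 2.0e-11 for Cemip. The call for Dkk1 was lost without several single libraries.

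Between the moderate and the high fraction the change differed at 156 genes, among them Ctnnb1 (log2 1.71), Fgf1 (1.69), Cdk8 (1.23), Slc7a7 (-1.44), Pigf (-1.29) and Hspb6 (-1.08).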

How the results depend on the processing

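For C1MDT against C1M, the number of genes called was 6104 to 8092 over the alternatives that kept all libraries and 7372 to 7634 when 1 library was left out (3494 to 3643 higher, 3878 to 4028 lower, 473 to 497 over 2 and 1100 to 1136 under -2 on the log2 scale). Requiring 1 CPM in all libraries, which tests fewer genes, left 130 genes over 2 and 236 under -2. The contrast with the high fraction was the least stable. It gave 71 lower genes with library size alone and 82 higher genes with DESeq2, and with 1 library left out 46 to 201 called, 8 to 71 higher and 35 to 130 lower. Leaving out C1M replicate 2 (63 genes), C1H replicate 1 or 2 (81 each), C1MDT replicate 3 (63) or 4 (55) or C1HDT replicate 4 (46) moved its count by over 1.5 times, and the cause was not tested. The contrast with C1MV gave 1403 to 1831 (744 to 971 higher, 659 to 860 lower) and that with the knockout 3306 to 3638 (1593 to 1943 higher, 1585 to 1855 lower).

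Replicate numbers are shared between groups but did not mark pairs. Same-numbered libraries correlated at -0.0185 to 0.0056, others at -0.0283 to 0.0279, and 0 libraries correlated best with their own number. With a replicate block 7929 genes were called for C1MDT against C1M (3721 higher, 4208 lower, 481 over 2 and 1139 under -2), 1858 against C1MV (980 and 878), 3653 in the difference from the knockout (1778 and 1875) and 129 in that from the high fraction (34 and 95). Of the named genes, only Nanog's difference from the knockout lost its call under the block (FDR 0.0534).

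Over all alternatives no named gene changed direction. Requiring 1 CPM in all libraries turned the median of the endoderm transcription factors to -0.13, FGF ligands and receptors to -0.18, Wnt targets to -0.27, Wnt components to -0.06, MYC and MAX genes to -0.14, forkhead genes to 0.16 and fibroblast markers to 0.74, by leaving out members near 0 in any group. Without members at or under 3 counts in both groups, and with those lacking a count in 1 group at their bound, the median was 2.09 for the endoderm transcription factors, 1.48 for the effectors, -2.71 for the naive factors, -1.71 for the streak and mesoderm genes, 1.39 for the FGF genes and 0.43 for the Wnt targets. Values for named genes kept their side of the threshold in 3177 instances, lost it in 70 and gained it in 4. Values for lists stayed within 1.5 times or the spread in 1932 instances and moved in 90, and the library measures stayed within -1.76 to -1.65 (mitochondrial percent), 2.3 to 2.51 (ribosomal percent), -2.12 to -1.75 (10 most counted genes, percent) and -834.1 to -800.8 (genes with a count) with 1 library left out. Without thinning, the difference in genes with a count was -777.8. Depth limits genes under about 3 counts per library.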
